A study of Saccharomyces cerevisiae with 93 samples.

Results

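The cytosolic ribosomal protein genes of budding yeast are described here in cells that make human alpha-synuclein, over strains, hours of induction and 6 compounds. A probe was a member when its open reading frame carries the standard name RPL or RPS with a number and an optional copy letter A or B, or is 1 of the 5 genes RPP0, RPP1A, RPP1B, RPP2A and RPP2B. By this rule 137 of 6377 probes were members, and 0 genes that meet it were missing from the arrays. Of the members, 76 encode proteins of the large subunit (RPL), 56 of the small subunit (RPS) and 5 of the stalk of the large subunit (RPP). Copy letters were carried by 114 members, which form 57 pairs of duplicated genes, while 18 members outside the stalk have no copy letter.

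Ribosomal proteins are made in step with ribosomal RNA, and in growing yeast their messages take a large share of all transcription. Transcription factors such as Rap1, Fhl1 with its activator Ifh1, Hmo1 and Sfp1 act at their promoters, and the nutrient kinases TORC1 and protein kinase A set how strongly. Starvation and many stresses lower ribosomal protein messages together, which makes them a common readout of growth state in this organism.

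The study set out to rescue yeast, as a model of Parkinson's disease, from toxic alpha-synuclein. Per the labels, cultures started from 1 colony were grown overnight to early stationary phase, moved to galactose, which turns on the promoter of the alpha-synuclein gene, and harvested after 0, 2, 4 or 6 h. Strains held 1 copy of alpha-synuclein (1-copy), 2 copies (2-copy) or an empty vector. At every time the 3 strains were set against each other in each combination, and at 4 h compounds 1 to 6 were tested in 2-copy and in vector cells. The label of 1 sample gives the background as W303 of mating type a, deleted for PDR1 and PDR3, which turn on drug pumps, with both alpha-synuclein genes fused to green fluorescent protein. Labels of the other samples do not repeat the genotype, so that it is not given here for them. Doses of the compounds are not given in the labels. On each of 93 arrays the first-named RNA carried the dye Cy5 and the second Cy3, and a group is 3 arrays of 3 pairs of biological replicates, apart from 6 arrays of 2-copy over vector at 4 h.

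All values are log2 ratios of the first-named over the second-named sample, so that 1 is a doubling and -1 a halving. The direction was read from the order of the labels and the dyes and is assumed. Most probes of an array lie near 0 by construction, so that a member's ratio is relative to the other genes, and in bulk cultures less RNA per cell and fewer cells that make it cannot be told apart. The copies of a duplicated gene are nearly identical in sequence, and whether a probe separates them is uncertain. A mean was called higher or lower where its Benjamini-Hochberg adjusted p, over all probes of that comparison in a limma fit to 83 arrays, was under 0.05. Every adjusted p below is from that fit.

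Some arrays stood apart. Left out were 10 arrays. For 2-copy over vector with compound 3, 4 or 6 these are arrays 2 and 3 each time. For 2-copy cells with compound over none they are arrays 2 and 3 with compound 3, and array 3 with compound 4 and with compound 6. On the 6 left out with 2-copy over vector, TRP1, a tryptophan synthesis gene used as a strain marker, was between -0.86 and 0.12, against 1.34 to 1.73 on the 12 kept. Over all probes, a left-out array and a kept array of its group correlated between -0.037 and 0.214. Pairs of kept arrays ran from -0.406 to 0.966, so that some agreed no better. Among them were the arrays of compound 5 in 2-copy cells, at 0.078, 0.162 and 0.028. Compound 6 in 2-copy cells has 2 kept arrays that correlated at -0.406, and 2 arrays of compound 5 in vector cells at -0.323, so that the direction of those groups is not settled. In untreated 2-copy over vector, TRP1 was 1.46 to 1.63 at 2 h and had a mean of 1.26 at 4 h, where the lowest array was 0.56, but -0.13 to 0.36 at 6 h, while the folding chaperone gene KAR2 was 3.31 to 3.83 at 4 h and 3.45 to 3.89 at 6 h. TRP1 was also low at 0 h, with 0.31, -0.17 and 0.94. TRP1 at 6 h thus lay below every array of 2 h and 4 h, and at 0 h below every array of 2 h. In 1-copy over 2-copy, TRP1 was -0.95, -1.25 and -1.17 at 0 h and from -1.65 to -0.97 at 2 h and 4 h. It was -0.33, -0.21 and -0.24 at 6 h. The 6 h arrays thus stood apart in that comparison too, while those of 0 h lay near those of 4 h. In 1-copy over vector at 0 h TRP1 was -0.72, -0.45 and -0.25. Whether the cells of 0 h and 6 h are of the same strain as those of 2 h and 4 h is not settled by these values, which bears on every difference between times, and the part of TRP1 was not tested. No probe measures alpha-synuclein.

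In 2-copy cells the ribosomal protein genes were lower than in vector cells after 4 h of induction and higher after 6 h. At 4 h, 120 of 137 members were lower and 0 higher, where 29.8% of all probes were lower and 32% higher. They were 65 of 76 large subunit genes, 51 of 56 small subunit genes and 4 of 5 stalk genes. The median member stood at -0.66, a 1.58-fold lower level, with the median of all probes at 0. At 6 h, 78 members were higher and 3 lower, with a median of 0.43, or 1.35-fold, where 22.6% of all probes were higher and 20.2% lower. Of the 120 members lower at 4 h, 73 were among the 78 higher at 6 h, and 45 were past the threshold in neither direction at 6 h.

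The medians of the members on single arrays show the course. At 0 h they were 1.26, 0.10 and -0.00 on arrays 1 to 3, and at 2 h -0.01, -0.09 and -0.05. At 4 h they were -0.35, -0.64, -0.68, -0.52, -0.97 and -0.66 on arrays 1 to 6, and at 6 h 0.66, 0.41 and 0.40. Every 4 h array lay below every array of the other times, and every 6 h array above every 2 h array. Array 1 of 0 h stood far above both others of its group and above the 6 h arrays. Below 0 on all 6 arrays of 4 h were 112 members, against 27.6% of all probes, and above 0 on all 6 was 1, RPL43A, against 30.3% of all probes. At 6 h, 93 members were above 0 on all 3 arrays and 3 below, against 28.1% and 27.8% of all probes.

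**Figure D1:**
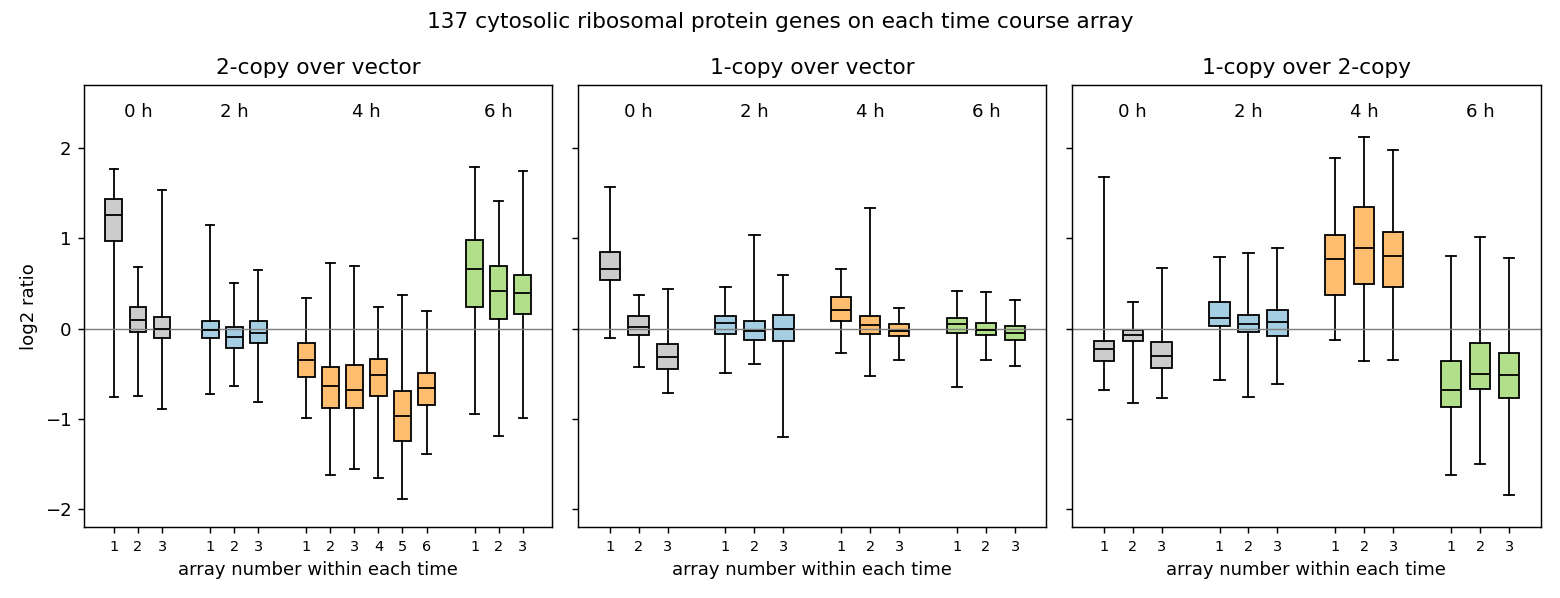
Log2 ratios of the 137 members on each array of the time course, with 1 panel for each pair of strains, arrays numbered within each time on the x axis, boxes from the first to the third quartile with the median as a line, and whiskers from the lowest to the highest member. The boxes of 2-copy over vector lie below 0 on all 6 arrays of 4 h and above 0 on the 3 arrays of 6 h, array 1 of 0 h stands above both others of 0 h, and the boxes of 1-copy over vector stay near 0 from 2 h on.

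Before induction, the count of higher members rested on 1 array. At 0 h, 60 members were higher and 0 lower, where 8.39% of all probes were higher and 6.45% lower, with a median of 0.46. Without array 1 the count was 1, and with a term for a dye effect it was 24. RPL30, whose protein represses splicing of its own transcript, was 1.63, 0.69 and 0.21 on the 3 arrays (mean 0.85, adjusted p 0.0121). RPL25, which sits at the exit of the peptide tunnel, was 1.73, 0.55 and 0.12 (0.80, adjusted p 0.00248). Both were above 0 on each array, with array 1 the highest in each. The lowest means were those of RPL2B and RPS6A, both -0.20 and not past the threshold. At 2 h, 1 member was higher and 1 lower, where 6.9% of all probes were higher and 5.33% lower. RPS15, needed for export of the small subunit from the nucleus, was 0.79, -0.11 and 0.66 (0.45, adjusted p 0.0147), and RPL4A was -0.16, -0.18 and -0.39 (-0.24, adjusted p 0.0467). Without array 1 or without array 3 of 2 h, the count of members was 0.

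The 6 lowest members at 4 h came from both subunits. RPL33A (YPL143W), of the large subunit, was -0.45, -1.24, -1.41, -1.65, -1.74 and -1.23 on arrays 1 to 6, with a mean of -1.29 ± 0.461 (SD, n = 6) and a limma adjusted p of 4.76e-11. RPL22A (YLR061W), the main copy of a large subunit protein that growth does not require, was -0.79, -1.09, -1.42, -0.98, -1.65 and -1.39 (-1.22 ± 0.321, adjusted p 8.1e-10). RPS11B (YBR048W), of the small subunit body, was -0.72, -1.62, -1.42, -1.14, -1.58 and -1.23 (-1.28 ± 0.333, adjusted p 4.5e-13). Array 1 was the least negative for each of the 3. RPS11A (YDR025W), the other copy, was -0.82, -1.60, -1.42, -0.83, -1.62 and -0.99 (-1.21 ± 0.377, adjusted p 4.99e-14). RPL16B (YNL069C) was -0.73 to -1.89 with a mean of -1.26 ± 0.374, and RPL20A (YMR242C) -0.87 to -1.55 with a mean of -1.24 ± 0.309. All 6 were below 0 on each of the 6 arrays. At 0 h the same genes were spread as the array medians were: RPL33A was 1.46, 0.17 and -0.10, RPS11B 1.33, -0.23 and 0.21, and RPL22A 1.03, -0.04 and -0.37.

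At 6 h, 3 of the same 6 members were called higher and 3 had no call. RPL33A was 1.51, 0.69 and 0.93 (1.04 ± 0.422, n = 3, limma adjusted p 4.39e-05), RPL22A 1.65, 0.89 and 1.02 (1.19 ± 0.408, adjusted p 1.13e-05) and RPL20A 0.66, 0.14 and 1.13 (0.64, adjusted p 0.00264). These 3 rose above vector on every array. RPS11A was 0.09, -0.02 and -0.06 (0.00, adjusted p 0.987), RPS11B 0.18, 0.25 and 0.61 (0.34, adjusted p 0.12) and RPL16B 0.45, 0.49 and -0.15 (0.26, adjusted p 0.28). These 3 were not past the threshold. RPS11A was near 0, while RPS11B was above 0 on every array.

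The 3 highest members at 6 h were of the small subunit, followed by RPL22A at 1.19. RPS22B (YLR367W) was 1.59, 1.06 and 1.75 at 6 h (1.47 ± 0.362, n = 3, limma adjusted p 8.37e-11), after -0.44, -0.74, -0.73, -0.69, -1.40 and -0.90 at 4 h. RPS9B (YBR189W), a copy of a gene known for its role in decoding accuracy, was 1.79, 1.41 and 1.20 (1.47 ± 0.299, adjusted p 1.02e-08), after -0.16, -0.50, -0.59, -0.75, -1.37 and -0.86 at 4 h. The arrays of the times did not overlap for either gene. Its copy RPS9A was 1.40, 0.96 and 1.33 at 6 h (1.23 ± 0.234, adjusted p 4.3e-07) and had a mean of -1.09 at 4 h.

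A test of the difference between times gave the same picture. From 0 h to 4 h the ratio fell for 130 members and rose for 0, where it fell for 18.5% and rose for 21.8% of all probes, with a median change of -1.06. Arrays of 4 h lay wholly below those of 0 h for 97 members and wholly above for 0, against 16.7% and 19.9% of all probes. Without the arrays numbered 1 of both times it fell for 102. The largest falls were those of RPL33A (-1.80, SE 0.256) and RPS26A (-1.77, SE 0.214). From 4 h to 6 h it rose for 116 members and fell for 1, where it rose for 15.9% and fell for 17.2% of all probes. The median rise was 1.09, or 2.13-fold, with RPL22A (2.41, SE 0.268) and RPL33A (2.33, SE 0.256) highest. Arrays of 6 h lay wholly above those of 4 h for 105 members, against 13.2% of all probes. Against 0 h, by contrast, 6 h arrays lay wholly above for 8 members and wholly below for 3, against 16.6% and 14.9% of all probes. The heat-shock genes HSP26 and HSP12 moved the other way between 4 h and 6 h, from 5.51 to 0.69 and from 4.08 to 0.33, while KAR2 stayed at 3.57 and 3.65. Their part in the change was not tested.

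**Figure D2:**
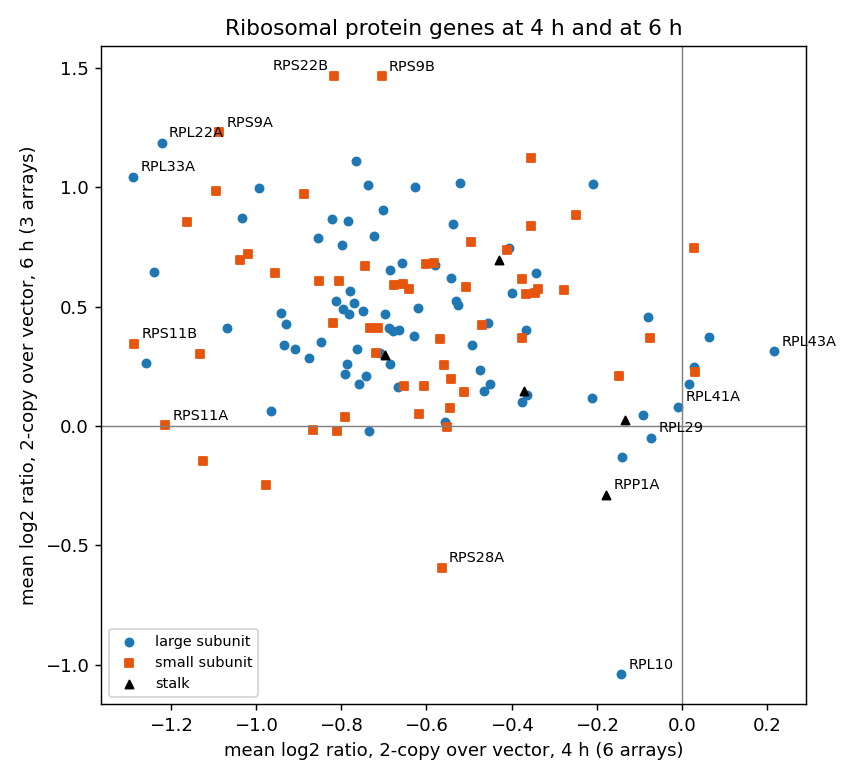
Mean log2 ratio of 2-copy over vector for each of 137 members at 4 h (x axis, 6 arrays) and at 6 h (y axis, 3 arrays), with large subunit, small subunit and stalk genes marked apart. Most members lie left of 0 and above 0, while RPL10 lies at the bottom right with -0.14 and -1.04, RPS28A at the bottom with -0.56 and -0.59, and RPL43A at the far right with 0.22.

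The exceptions at 6 h were RPL10, RPS28A and RPP1A, the 3 lower members. RPL10 (YLR075W), a gene with no copy whose protein is among the last to join the large subunit, was -0.31, -0.26, -0.12, -0.09, -0.29 and 0.20 at 4 h (-0.14, limma adjusted p 0.287). At 6 h it was -0.94, -1.19 and -0.99 (-1.04 ± 0.133, n = 3, adjusted p 5.51e-07). In the test of the change from 4 h to 6 h it was the 1 member called lower, by 0.90 on the log2 scale (SE 0.202, limma adjusted p 0.000341). RPS28A (YOR167C) was lower at both times, from -0.17 to -0.96 at 4 h (-0.56, adjusted p 2.76e-07) and -0.39, -0.69 and -0.71 at 6 h (-0.59, adjusted p 0.000126). Its copy RPS28B, whose protein regulates decay of its own message, was -0.24 to -1.56 at 4 h (-0.98, adjusted p 2.29e-06) and -0.43, -0.88 and 0.57 at 6 h, with no call. With every array scaled to a common spread, RPS28A at 6 h had an adjusted p of 0.0543, and the count at 6 h fell from 81 to 27.

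The stalk recruits elongation factors to the ribosome, and the means of 4 of its 5 genes were closer to 0 than the median member at 4 h. RPP0 (YLR340W), the base of the stalk, was -0.73, -0.50, -0.54, 0.02, -0.19 and -0.28 (-0.37, limma adjusted p 0.00184), with array 4 at the level of the vector. The acidic proteins attached to it are RPP1A, RPP1B, RPP2A and RPP2B. RPP1A (YDL081C) was between -0.29 and -0.07 (-0.18, adjusted p 0.0142), RPP1B between -0.71 and -0.21 (-0.43, adjusted p 0.00139), RPP2A between -0.85 and -0.42 (-0.70, adjusted p 0.00512) and RPP2B between -0.28 and 0.10 (-0.13, adjusted p 0.123). At 6 h they parted: RPP1B was 0.74, 0.70 and 0.64 (0.69, adjusted p 0.000573), RPP1A -0.11, -0.47 and -0.28 (-0.29, adjusted p 0.00818), and the 3 others were not past the threshold. RPP0 was 0.45, -0.33 and 0.32 there, RPP2A 0.79, -0.40 and 0.51, and RPP2B 0.08, -0.02 and 0.01. With arrays scaled to a common spread, the 4 h calls of RPP0, RPP1A, RPP1B and RPP2A were lost (adjusted p 0.0687, 0.23, 0.0664 and 0.0901), and RPP1A and RPP2A also lost theirs with a dye term (0.518 and 0.0574). At 6 h the scaled arrays left RPP1A at 0.239 and RPP1B at 0.0645, and RPP1A stood at 0.173 without array 2.

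RPL40A, RPL40B and RPS31 are made as fusions with ubiquitin, so that their messages also supply free ubiquitin. At 4 h RPL40A was -0.61, -0.92, -0.74, -0.72, -1.28 and -1.29 (-0.93, limma adjusted p 1.62e-09). RPL40B was -0.13 to -1.22 (-0.71, adjusted p 9.04e-07), and RPS31 0.05, -0.63, -0.76, -0.69, -1.25 and -0.57 (-0.64, adjusted p 0.000186). All 3 fell, with array 1 of RPS31 as the 1 value above 0. At 6 h RPL40A was 0.43, 0.35 and 0.50 (0.43, adjusted p 0.0367), RPL40B 0.46, 0.03 and 0.43 with no call, and RPS31 -0.07, 1.03 and 0.76 (0.57, adjusted p 0.023). Without array 1, 2 or 3 of 6 h the call of RPL40A was lost (adjusted p 0.112, 0.0827 and 0.138), and so was that of RPS31 without array 2 or 3 (0.316 and 0.145).

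The 17 members with no call at 4 h ran from -0.25 for RPS12 to 0.22 for RPL43A. They hold both copies of 2 pairs, RPL4 and RPL41, and 1 copy of 7 pairs. RPL10, RPL25, RPL29, RPS2, RPS12 and RPP2B have no lettered partner in the 57 pairs. These genes were listed after their values were seen. RPL41A and RPL41B encode the shortest protein of the ribosome, and their arrays split. RPL41A was 0.16, 0.73 and 0.69 on arrays 1 to 3 and -0.36, -0.73 and -0.55 on arrays 4 to 6, and RPL41B 0.17, 0.72, 0.66, -0.30, -0.68 and -0.47. Each was above 0 on the first 3 arrays and below 0 on the other 3, so that means of -0.01 and 0.01 stand for no array. RPL4B, also with no call, did not split so, with -0.29, 0.03, 0.10, -0.15, -0.18 and -0.36.

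The copies of duplicated genes were set beside each other. At 4 h, when 120 of all 137 members were lower, 48 of the 57 pairs were lower in both copies, 7 in 1 copy only, 2 in neither and 0 in opposite directions, and the median size of the difference between copies was 0.28. At 6 h, 23 pairs were higher in both copies, 21 had a call in 1 copy only and 13 in neither. Among the 21 was RPS28, where the called copy, RPS28A, was lower. Of the members without a copy letter outside the stalk, 13 of 18 were lower at 4 h and 11 of 18 higher at 6 h.

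Among the pairs whose copies differed most at 4 h were RPL43, RPS0, RPL20 and RPS16, each in the same direction on all 6 arrays. RPL43A (YPR043W) was 0.27, 0.41, 0.26, 0.15, 0.01 and 0.19 (0.22 ± 0.134, n = 6, limma adjusted p 0.112), and RPL43B -0.50, -0.70, -0.37, -0.80, -1.31 and -1.11 (-0.80, adjusted p 3.03e-06), a difference of 1.01. In RPS0, needed to process small subunit RNA, RPS0A was -0.61, -1.29, -1.29, -1.11, -1.78 and -0.89 (-1.16) and RPS0B -0.14, -0.46, -0.18, -0.21, -0.57 and -0.11 (-0.28), a difference of -0.88. Both RPS0 copies were lower than in vector cells, but RPS0B had an adjusted p of 0.0549 without array 5. In RPL20 the difference was -0.79, with RPL20A the lower copy. RPL20B had a mean of -0.45, and its arrays ran from -0.91 to -0.13, with an adjusted p of 0.056 without array 5. RPS16B, from -1.49 to -0.75, was lower than RPS16A, from -0.63 to -0.18, by 0.73. With arrays scaled to a common spread, RPS0B, RPL20B and RPS16A had an adjusted p of 0.194, 0.123 and 0.0582.

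**Figure D3:**
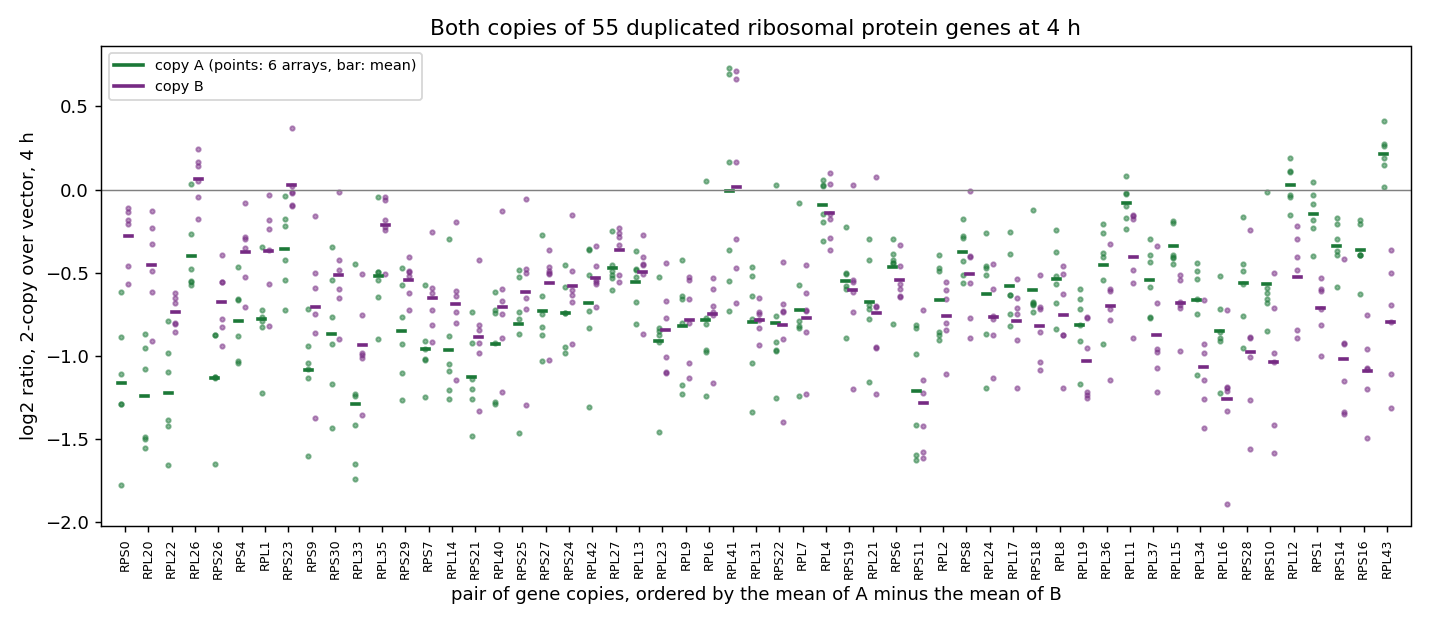
Log2 ratio of 2-copy over vector at 4 h for both copies of 55 duplicated genes, with 6 arrays as points and their mean as a bar, ordered along the x axis by the mean of copy A minus that of copy B. Both copies lie below 0 in most pairs, RPS0 and RPL20 at the left have the lower A copy, RPL43 at the right has the lower B copy, and the points of RPL41 split above and below 0.

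Genes that work with ribosomal proteins were taken from 6 lists. Of 25 translation initiation factors, 18 were lower and 1 higher at 4 h (median -0.36), among them TIF2, 1 of the genes for the helicase eIF4A, at -0.92, and the eIF3 subunits NIP1 (-0.75) and RPG1 (-0.64). Of 24 genes of nucleolar ribosome assembly and RNA polymerase I, 14 were lower and 0 higher (median -0.31), with the polymerase subunits RPA190 at -0.90 and RPA135 at -0.70. At 0 h, when the members' median was 0.46, the nucleolar list stood at a median of -0.27 with 4 lower, where 6.45% of all probes were. From 0 h to 4 h its ratio rose for 2 genes and fell for 1. Over the same interval the ratio fell for 9 of the 25 initiation factors and rose for 1. Of all probes, the ratio fell for 18.5% and rose for 21.8% in that interval. Of 10 elongation factors, 3 were lower and 2 higher (TEF4 -0.70, HYP2 0.69, TEF1 0.60), of 7 factors that bind nascent chains 4 were lower and 1 higher (EGD2 -0.61), and of 9 chaperones of single ribosomal proteins 2 were lower and 0 higher (ACL4 -0.42, RRB1 -0.38). Counts at 4 h are read against 29.8% of all probes lower and 32% higher.

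Of 22 regulators of ribosomal protein genes, 6 were higher and 6 lower at 4 h, close to the shares of all probes (32% and 29.8%). HMO1 (-0.55), UTP22 (-0.53), which also binds the regulator Ifh1, and RAP1 (-0.35) were lower, and so were TOR1 (-0.33) and SCH9 (-0.21), the kinase TOR and a kinase that it activates. YAK1 (0.62), a kinase that opposes growth, BCY1 (0.55) and TPK2 (0.54), the regulatory and a catalytic subunit of protein kinase A, and STB3 (0.52), a repressor of growth genes, were higher. Of the other promoter factors, FHL1 at 0.01, IFH1 at 0.00 and SFP1 at -0.04 were not past the threshold.

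At 6 h, 22.6% of all probes were higher and 20.2% lower, against which the lists are read. Of the initiation factors 11 were lower and 1 higher (median -0.30), with CDC33, the cap-binding protein, at -1.19 and TIF4632 at 0.58. Of the nucleolar genes 5 were lower and 0 higher (median -0.19), of nascent chain factors 4 were lower (EGD1 -1.06), and of elongation factors 3 (TEF4 -0.71). In the chaperone list 1 gene was lower. Of the 22 regulators, 5 were higher, close to the share of all probes, and 3 lower. FHL1 (0.54), RAP1 (0.51), STB3 (0.47) and SFP1 (0.31) were among the higher ones, and CRF1 (-0.44), a corepressor, among the lower ones. From 4 h to 6 h the ratio rose for 0 nucleolar genes and 3 initiation factors and fell for 0 and 4, where it rose for 116 members. For the 22 regulators it rose for 7 and fell for 2. Of all probes, it rose for 15.9% and fell for 17.2%, so that the initiation factors stood near those shares.

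The 1-copy strain did not share the 4 h fall. Against vector, 0 members were past the threshold at 0, 2, 4 and 6 h, where 2.98%, 5.76%, 0.643% and 0.8% of all probes were, and 11, 3, 1 and 0 had an unadjusted p under 0.05 in the limma fit. Medians of the members were 0.16, 0.02, 0.08 and -0.01 at those times. On the 3 arrays of 4 h they were 0.21, 0.05 and -0.02, and on those of 0 h 0.67, 0.02 and -0.32. The smallest adjusted p was 0.0783, at 0 h, and the highest mean there was RPS4A with 1.07, 0.32 and 0.44 (0.61). With arrays scaled to a common spread, 5 members passed at 0 h, 2 at 4 h and 3 at 6 h.

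In the direct comparison with 2-copy cells, those with 1 copy had more of most ribosomal protein messages at 4 h and less at 6 h. At 4 h, 110 members were higher and 0 lower, 60 of the large subunit, 48 of the small and 2 of the stalk, where 23.2% of all probes were higher and 24.9% lower. The members' medians on the 3 arrays were 0.77, 0.90 and 0.80, and the median mean of 0.84 is 1.79-fold. RPL30 was 1.86, 2.01 and 1.73 (1.87, limma adjusted p 3.52e-09), beside 0.28, 0.24 and 0.03 in 1-copy over vector and a mean of -0.63 in 2-copy over vector. RPS4A was 1.89, 1.80 and 1.84 (1.84, adjusted p 2.31e-11), beside means of 0.17 and -0.79. For both genes the direct ratio was larger than the difference of those means. RPL41A at -0.22 and RPL41B at -0.14 were lowest, with no call.

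At 6 h of the same comparison, 90 members were lower and 2 higher, where 20% of all probes were lower and 19.8% higher. The array medians were -0.68, -0.50 and -0.51. TRP1 was -0.33, -0.21 and -0.24 on these arrays, apart from its values at earlier times, and its part was not tested. RPS22B was -1.20, -1.09 and -1.85 (-1.38, limma adjusted p 6.08e-10) and RPS31 -1.39, -1.35 and -1.30 (-1.35). The higher members were RPL10 with 0.55, 0.82 and 0.78 (0.72, adjusted p 0.000343) and RPS28A with 0.59, 0.49 and 0.38 (0.49, adjusted p 0.00171), both of them lower in 2-copy over vector. With arrays scaled to a common spread, RPS28A had a mean of 0.30 (adjusted p 0.102), and the count of members fell from 92 to 49. Of 110 members higher at 4 h, 74 were among the 90 lower at 6 h. At 0 h, 102 members were below 0 on all 3 arrays, against 21.4% of all probes, but 2 passed the threshold, RPS11B at -0.61, -0.82 and -0.43 (-0.62, adjusted p 0.033) and RPS16A with a mean of -0.47, where 2.71% of all probes were lower and 1.79% higher. At 2 h RPL26A, at 0.51, 0.84 and 0.31 (0.55, adjusted p 0.016), and RPL11A (0.34) were higher and 0 members lower, where 5.1% of all probes were higher and 6.84% lower. Without array 1 or without array 2 of 2 h neither RPL26A nor RPL11A passed as higher, and with a dye term 0 members passed at 2 h. Without array 1 or without array 3 of 0 h neither RPS11B nor RPS16A passed.

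Of the compounds, 1 and 2 share a benzoquinolinone core and differ in the halogen of a phenyl ring, iodine in 1 and bromine in 2. Compounds 3 and 4 share a dimethyl quinolinone core and carry bromine and fluorine at different positions of such a ring. In 2-copy cells many ribosomal protein genes were higher with compounds 1 and 2 than without. With compound 1, 59 members were higher and 2 lower, where 17.2% and 19.8% of all probes were, with array medians of 0.42, 0.41 and 0.26. With compound 2, 59 were higher and 3 lower, where 16.6% and 20.5% were, with array medians of 0.36, 0.45 and 0.29. Member medians of 0.34 and 0.36 correspond to 1.26-fold and 1.29-fold. The counts fell to 28 without array 1 of compound 1 and to 32 without array 2 of compound 2, and to 20 and 24 with arrays scaled to a common spread and 35 and 36 with a dye term. The same arrays showed lower KAR2, at -3.16 and -3.74, and lower HSP26, at -2.75 and -3.09, as measured beside the members.

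Among the higher members, RPL22B (YFL034C-A), the minor copy of RPL22, was 0.97, 0.96 and 0.72 with compound 1 (0.88, limma adjusted p 2.34e-06), 0.40, 1.15 and 0.64 with compound 2 (0.73, adjusted p 5.25e-05) and 0.67 and 0.56 with compound 4. RPS24A was 1.04, 1.01 and 0.86 with compound 1 and 1.06, 0.92 and 0.73 with compound 2. Every one of these values was above 0.

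Of the 5 stalk genes, 3 were higher with compound 1 and 4 with compound 2, where 17.2% and 16.6% of all probes were. Their medians were 0.315 and 0.401 in 2-copy cells and 0.228 and 0.291 in vector cells. In the test of the strain difference, 0 stalk genes passed with either compound. RPP1A was 1.01, 0.28 and 0.25 with compound 1 (0.52, limma adjusted p 8.37e-06) and 0.32, 0.43 and 0.46 with compound 2 (0.40, adjusted p 0.000347). RPP2A had means that rested on array 1, which read 2.68, 2.30, 1.61, 1.55, 2.19 and 1.40 with compounds 1 to 6 in 2-copy cells, while its other kept arrays lay between 0.02 and 0.68. The other way went RPL10, at -1.05, -0.64 and -0.51 with compound 1 (-0.73, adjusted p 0.000341) and -0.70, -0.54 and -0.28 with compound 2 (-0.51, adjusted p 0.0124), and RPL15A, at 0.00, -0.98 and -0.31 (-0.43) and -0.33, -0.70 and -0.40 (-0.48). RPL10 was below 0 on all 12 kept arrays of compounds 1 to 5 in 2-copy cells. RPS30A with compound 2 was the third lower member (-0.38), and its copy RPS30B was higher (0.61), the 1 pair called in opposite directions there.

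The other compounds moved few members in 2-copy cells. Compound 3 has 1 kept array, with a member median of 0.13, and 0 members passed, where 6.77% of all probes did, with 9 at an unadjusted p under 0.05 in limma. Compound 4, with array medians of 0.09 and 0.27, gave 5 higher, among them RPS14B (0.72), RPL22B (0.61), RPS24B (0.56) and RPL2B (0.54), where 4.89% of all probes were higher and 8.25% lower. Without either array the count was 0. Compound 5, with array medians of 0.31, 0.00 and 0.05, gave 2 higher, RPL11B at 1.40, 0.00 and 0.35 (0.58, adjusted p 0.0219) and RPL36A (0.55), where 0.376% were higher and 1.74% lower. Without array 1 the count was 0. Compound 6, with array medians of 0.04 and 0.06, gave 0, where 0.0157% of all probes passed, with 3 members at an unadjusted p under 0.05, and 0 also with the sign of array 2 turned. A single kept array has no spread of its own, and its test borrows that of the other groups.

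**Figure D4:**
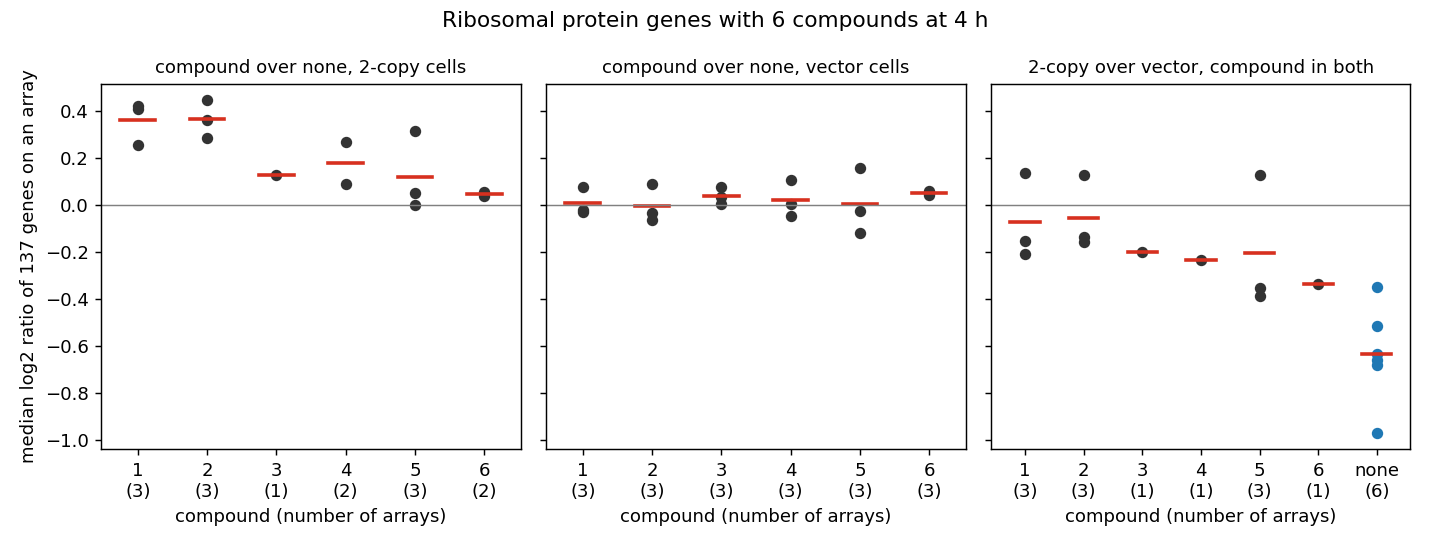
Median log2 ratio of the 137 members on each kept array with compounds 1 to 6 at 4 h, as points with their mean as a red bar, in 2-copy cells over untreated 2-copy cells, in vector cells over untreated vector cells, and in 2-copy over vector cells with the compound in both. The arrays of compounds 1 and 2 in 2-copy cells lie between 0.26 and 0.45, and those of vector cells lie around 0. In 2-copy over vector, every kept array with a compound lies above -0.40, beside -0.35 to -0.97 on the 6 untreated arrays in blue. Array 1 without a compound stands at -0.35, beside -0.34 on the 1 kept array of compound 6. Compounds 3 and 4 also have 1 kept array there.

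In vector cells the same compounds left the median near 0. With compound 1, RPP1A was higher (0.31) and 10 members lower, where 1.18% and 4.09% of all probes were. Of these, RPL10 was -0.29, -2.31 and -0.19 (-0.93) and RPL23B -0.13, -2.04 and -0.10 (-0.76), so that both rest on array 2, and without that array 0 members passed. With compound 2, RPP1A was 0.35, 0.38 and 0.22 (0.32, limma adjusted p 0.0489) and RPL15A -0.47, -0.52 and -0.48 (-0.49, adjusted p 0.00769), where 0.91% and 1.24% were higher and lower. RPL15A was also lower with compound 1, at -0.55, -0.31 and -0.42 (-0.43, adjusted p 0.0159). With compound 5, RPL4A was 0.53, 0.49 and 0.12 (0.38, adjusted p 0.0149) and RPS30A -0.58, -0.63 and -0.57 (-0.59, adjusted p 0.0289), where 0.0941% and 0.674% were. With the sign of array 2 turned, a setting chosen after the opposed arrays were seen, RPL4A was 0.05 and RPS30A -0.18, and 0 members passed. With compounds 3, 4 and 6, 0 members passed, where 0.345%, 0.392% and 0.0157% of all probes did, and 6, 10 and 6 had an unadjusted p under 0.05. With arrays scaled to a common spread, 13, 16 and 12 passed there, a setting for which no share of all probes is given here. Without array 1 or without array 2, 0 members passed for compound 2 and 0 for compound 5.

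Whether a compound acted differently in the 2 strains was tested as its ratio in 2-copy cells minus that in vector cells. The difference was above 0 and past the threshold for 16 members with compound 1, 8 with compound 2 and 1 with compound 4, where 7.73%, 5.6% and 0.627% of all probes were. It was below 0 and past the threshold for 0 members, where 9.63%, 10.2% and 1.69% of all probes were. Median differences over all members were 0.38 with compounds 1 and 2 each. For RPL22B it was 1.01 with compound 1 and 0.92 (SE 0.205, limma adjusted p 0.000984) with compound 2. The largest with compound 1, RPL23B (1.54, SE 0.277) and RPS24A (1.46, SE 0.241), rest partly on vector array 2, where they read -2.04 and -1.83. Without the arrays numbered 2 they were 0.97 (adjusted p 0.0113) and 0.76 (adjusted p 0.00718). With compound 4 the member was RPL2B (0.66, adjusted p 0.0444), which did not pass when any 1 replicate number was left out. For compounds 3, 5 and 6, 0 members passed, where 1.51%, 0.0784% and 0% of all probes did, with 5, 9 and 2 at an unadjusted p under 0.05. Leaving out replicate number 2 gave 9 members with compound 1, and leaving out number 1, 2 or 3 gave 2 to 4 with compound 2. With a dye term the counts were 88 with compound 1 and 96 with compound 2. The share of all probes in that setting is not given here, so that these 2 counts are not read as a result about the members.

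With compound 1 or 2 in both strains, 3 and 4 members separated 2-copy from vector cells, and with compound 5 there were 28. With compound 1, RPL15A (-0.57), RPP0 (-0.50) and RPS7B (-0.40) were lower and 0 members higher, where 4.88% and 5.07% of all probes were. With compound 2 they were RPP0, at -0.84, -0.78 and -0.46 (-0.69, limma adjusted p 0.00107), RPS11B (-0.60), RPS7B (-0.57) and RPL15A (-0.46), where 4.69% of all probes were lower and 3.06% higher. Array medians were 0.14, -0.15 and -0.21 with compound 1 and 0.13, -0.14 and -0.16 with compound 2, beside -0.35 to -0.97 without a compound. With compound 5, 28 members were lower and 0 higher, where 14.7% and 17.8% of all probes were, with array medians of 0.13, -0.39 and -0.36. That count was 2 without array 2, 56 without array 1 and 47 with a dye term. RPS28B (-0.91) and RPS21A, at 0.19, -1.69 and -1.05 (-0.85), were lowest. Compounds 3, 4 and 6 have 1 kept array each, with medians of -0.20, -0.24 and -0.34. The same member median can be reached from the untreated ratio and the ratio of the compound in each strain. By that sum it was -0.27, -0.26, -0.52, -0.47, -0.50 and -0.64 for compounds 1 to 6. Measured directly it was -0.08, -0.05, -0.20, -0.24, -0.23 and -0.34, less negative for each compound. The size of the gap with a compound thus depends on which value is read, and the cause was not tested. With compounds 3 and 4, 0 members passed, where 8.8% and 8.97% of all probes did. With compound 6, RPL22B (-0.83), RPL37A (-0.69) and RPS15 (-0.60) were lower and 0 members higher, where 7.68% and 11.9% of all probes were. Their count was 55 with a dye term and 46 with all 93 arrays. The 3 comparisons had 2, 8 and 17 members with an unadjusted p under 0.05.

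Pairs of compounds that share a core were compared in both strains, 4 tests in all, at 1 time and at doses not given here. Compounds 1 and 2 differed for 0 members in either strain, where 0% of all probes did in 2-copy cells and 0.0314% in vector cells. Compounds 3 and 4 likewise differed for 0, where 0.047% and 0% did. At an unadjusted p under 0.05 the limma counts were 2, 4, 0 and 0, and the smallest adjusted p of a member 0.623, 0.612, 1 and 1. The median difference of 1 minus 2 was -0.00 in 2-copy and 0.02 in vector cells, and that of 3 minus 4 was -0.04 and 0.01. The interval for single genes was wide. RPS3, near the entry of the message into the ribosome, differed by -0.68 between 1 and 2 in 2-copy cells, with a 95% interval of -1.09 to -0.27, from -1.02, 0.16 and 0.35 with compound 1 and 0.55, 0.68 and 0.30 with compound 2. RPS24A differed by -0.74 in vector cells (-1.22 to -0.26). Without the arrays numbered 3 the limma adjusted p was 0.0324 for RPS3 and 0.0306 for RPS24A. Without those numbered 1, or without those numbered 2, 0 members passed between compounds 1 and 2 in either strain. Between 3 and 4 in 2-copy cells, RPP2A differed by 0.75 (-0.58 to 2.07). These intervals do not show that paired compounds act alike.

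Over all 6 compounds, a moderated F test in limma found a difference among compounds in 2-copy cells for 2 members, among them RPL34A (F 5.56, adjusted p 0.00649), where 9.44% of all probes passed. RPL34A was 0.62, 0.68 and 0.28 with compound 1 and 0.41, 0.69 and 0.48 with compound 2. It was -0.08 with compound 3, -0.31 and 0.12 with 4, -0.26, 0.17 and -0.00 with 5, and -0.16 and 0.16 with 6. Arrays of compounds 1 and 2 thus lay above those of the 4 others. In vector cells 0 members passed, where 0.423% of all probes did, with 5 at an unadjusted p under 0.05 and a smallest adjusted p of 0.429. Without the arrays numbered 2 of every compound, 0 members passed in 2-copy cells.

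Over the means of the 30 groups, members moved much alike. The groups share strains and may share RNA, so that the correlations describe these groups. The correlation of a member with the median of the other members had a median of 0.87, with 98 of 137 above 0.8 and 12 under 0.5, while among other named probes the median was -0.06 and 1.72% were above 0.8. RPL32 (0.979), RPL40A (0.978), RPS18B (0.967) and RPS26A (0.964) were among the most alike. RPL32, whose protein also controls splicing of its own transcript, was -0.73, -0.99, -0.88, -0.91, -1.19 and -0.95 in 2-copy over vector at 4 h and 0.54, 0.51 and 0.38 at 6 h, with little spread among arrays of a time. RPL10 (-0.217), RPL4B (-0.034), RPL41B (0.054), RPL41A (0.152) and RPP1A (0.239) were the least alike. Of genes outside the family, YGL159W (0.927), PMT4 (0.919), SYF2 (0.913), RIM13 (0.911) and ASC1 (0.9), whose protein sits on the small subunit, had the highest correlations, and PAI3 (-0.927) and TRX2 (-0.918) the lowest.

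**Figure D5:**
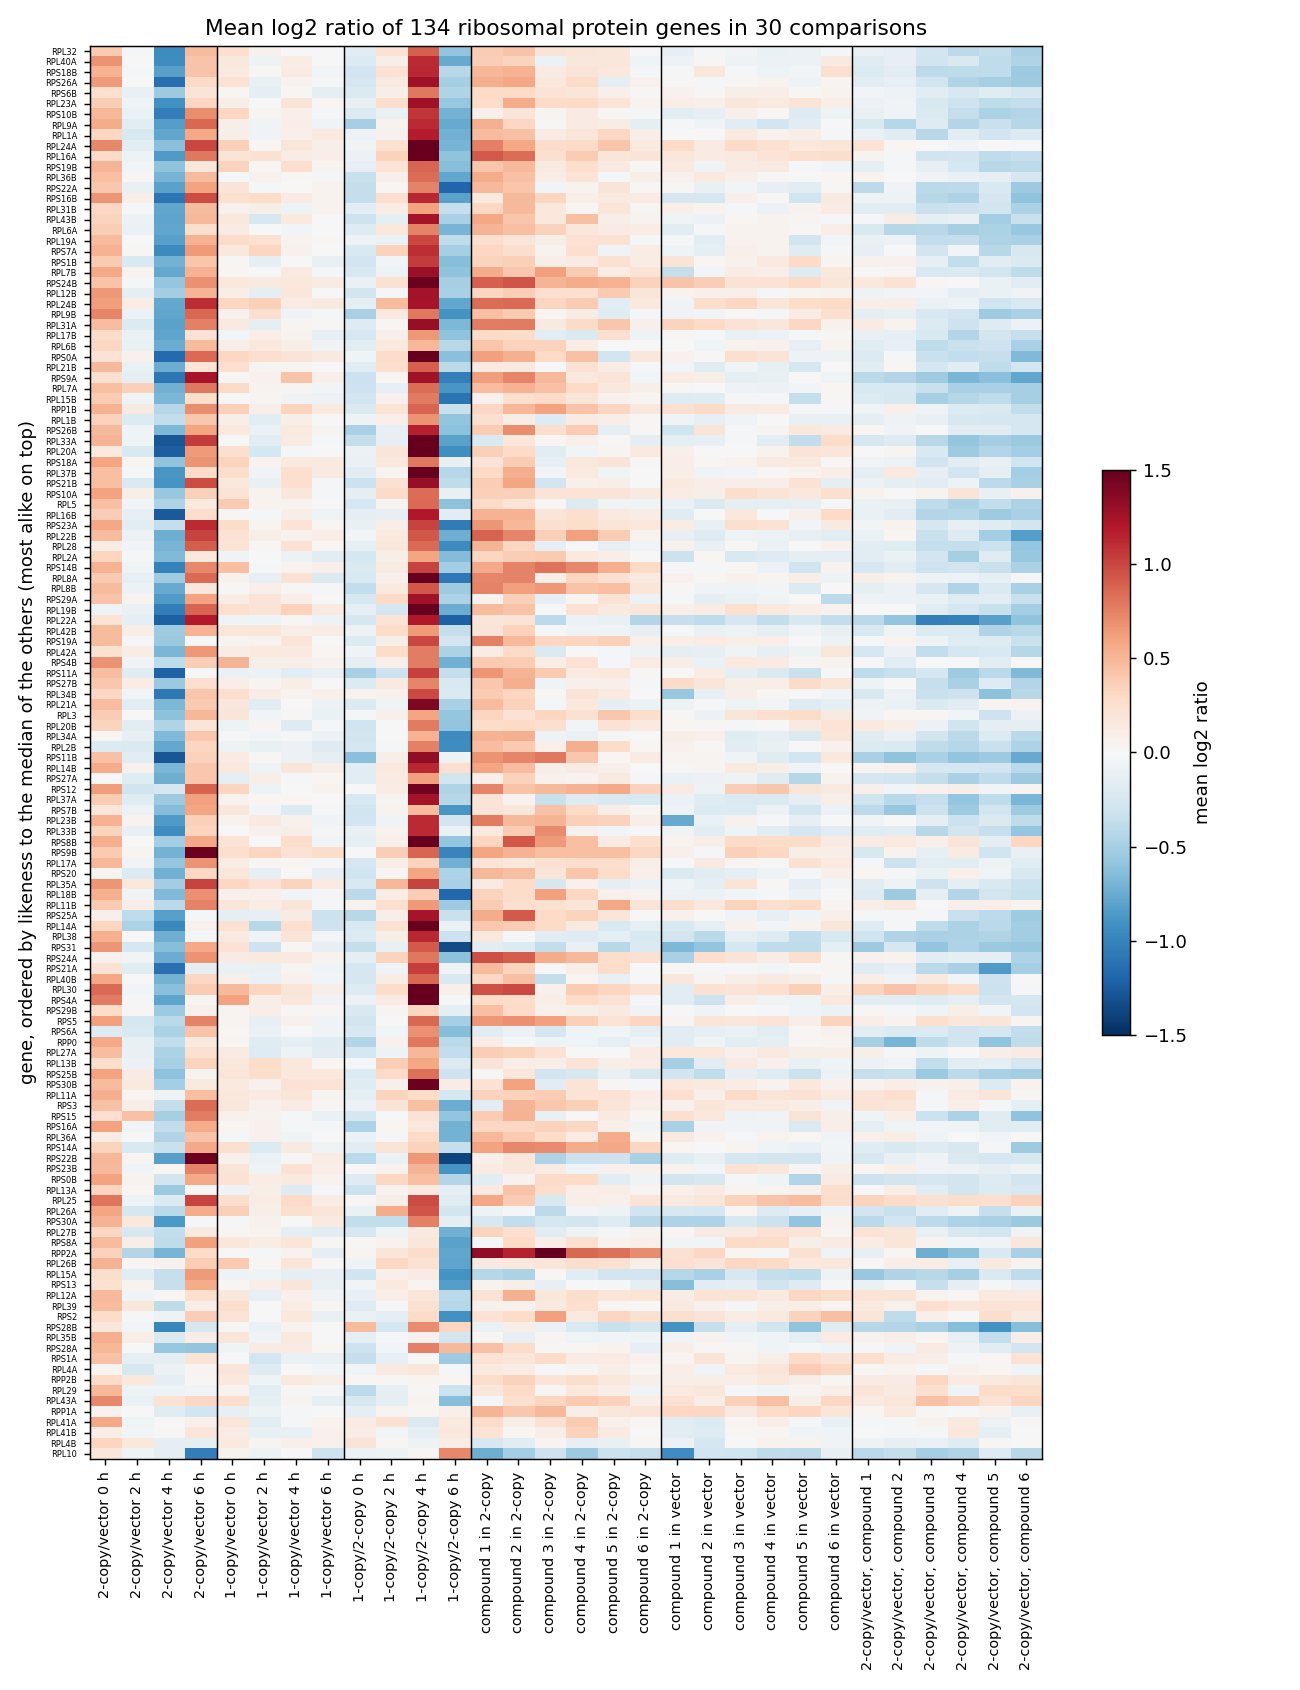
Mean log2 ratio of 134 members (rows, ordered by likeness to the median of the others) in the 30 groups (columns), with red for higher and blue for lower in the first-named sample on the scale of the colour bar. Rows are alike in the columns of 2-copy over vector at 4 h (blue) and 1-copy over 2-copy at 4 h (red), and the bottom rows, among them RPL10, RPL4B, RPL41A and RPL41B, stand apart.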

How the data were processed

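Dual-colour arrays of total RNA were normalised by the authors, who deposited 1 log2 ratio per probe and array. The submitters' processing notes name limma, with no version; background correction, scale and direction are not given in these sources, and the values were taken for log2 of Cy5 over Cy3. Intensities were not analysed here, signal above background is thus unknown, and the number of arrays limits the precision. Per the labels, Cy5 held the first-named sample on every array, with no dye swap.

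Of 6377 probes, 5840 were matched to a gene of the RefSeq table, 128 members by locus tag and 9 after its hyphen was written. Limma 3.58.1 in R 4.3.3 fitted 1 mean for each group to 83 arrays (57.6 degrees of freedom, 4.61 of them prior), with two-sided moderated tests, adjustment over all probes of a comparison and a threshold of 0.05. Figures were drawn with matplotlib 3.10.9 in Python 3.11.15. The model was tested on simulated data. The sources do not say which arrays share a culture, so p-values measure the spread between these arrays.

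Named members were, by mean, the 6 highest and 6 lowest of 2-copy over vector at 4 h, 4 and 4 at 6 h, and up to 2 and 2 of every other group and difference. The stalk and ubiquitin fusion genes, the 5 pairs of copies that differed most, the 5 most and 5 least alike, the 4 largest F and up to 3 genes of a list were added. Other members of short counts and the other list genes, most regulators among them, were named after their values were seen. Single values of 3 members are not reported here, and they are in counts and medians only. Members and lists were chosen with earlier results of these data known, and the lists were written from textbook knowledge. Other settings tried were scaling to a common median absolute deviation, a term for the dye, all 93 arrays, arrays left out in turn and replicate number as a block.

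Same-numbered arrays deviated together, each with a correlation above 0.1, for compounds 1 minus 2 in 2-copy cells (0.668 to 0.741) and in vector cells (0.181 to 0.659) and for 3 minus 4 in vector cells (0.387 to 0.668); this pairing comes from the data, not from the labels.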

Additional observations from a re-analysis of the deposited data

Results flagged for a closer look

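Of 32 values, those of the named members and their median, tested for a lone array among the 6 of 2-copy over vector at 4 h, 2 had one, where chance gives about 1 in 20. RPS23B was 0.37 on array 5, with the others between -0.10 and 0.02. RPS26A was -1.65 on array 5, with the others between -1.14 and -0.87.

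Tested differences between groups were found for 130 members from 0 h to 4 h and 117 from 4 h to 6 h in 2-copy over vector. These are 94.9% and 85.4% of the members, against 40.4% and 33.1% of all probes. Between 2-copy and vector cells they were found for 16 members with compound 1, 8 with compound 2 and 1 with compound 4. Those are 11.7%, 5.84% and 0.73% of the members, below the 17.4%, 15.8% and 2.32% of all probes.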

How the results depend on the processing

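Counts of members past the threshold are given here as they changed by over 1.5 times; over all settings, 146 recomputed counts did not, 97 did and 1 turned direction, while of single genes 1202 values kept call and direction, 95 lost the call, 45 gained one and 4 turned. The cause of a change was not tested unless fewer arrays were its construction. Shares of all probes under these settings are not given, so that a recomputed count shows a change in number only. The counts of 2-copy over vector at 4 h (115 to 120 without 1 array), of 4 h minus 0 h and 6 h minus 4 h and of 1-copy over 2-copy at 4 h stayed within 1.5 times under every setting run.

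With each array scaled to a common spread, counts for 1-copy over 2-copy became 22 at 0 h, 5 at 2 h and 49 at 6 h, for 1-copy over vector 5 at 0 h, 2 at 4 h and 3 at 6 h, and for 2-copy over vector 1 at 2 h and 27 at 6 h. In 2-copy cells they became 20, 24 and 2 for compounds 1, 2 and 6, and in vector cells 4, 13, 16, 6 and 12 for compounds 2 to 6. For 2-copy over vector with compounds 1, 2, 5 and 6 they became 7, 12, 2 and 0. Strain differences became 6, 1, 2, 1 and 1 for compounds 1, 2, 4, 5 and 6, and differences among compounds 0 in 2-copy and 2 in vector cells.

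With a dye term, counts became 24 for 2-copy over vector at 0 h, 4 at 2 h, and 1 and 0 for 1-copy over 2-copy at 0 h and 2 h. In 2-copy cells they became 35, 36 and 3 for compounds 1, 2 and 4, and in vector cells 2, 0 and 0 for compounds 1, 2 and 5. For 2-copy over vector with compounds 2 to 6 they became 2, 6, 11, 47 and 55. Strain differences became 88, 96, 4, 4 and 17 for compounds 1 to 5, and differences among compounds in 2-copy cells 6.

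With all 93 arrays, compound 3 in 2-copy cells gave 10 members, 2-copy over vector with compounds 3, 4 and 6 gave 6, 9 and 46, strain differences of compounds 3 and 4 gave 1 and 0, and differences among compounds in 2-copy cells 15. RPL25 in 2-copy over vector with compound 6 turned to -0.99. With arrays 1 to 3 of 4 h alone, RPL41A turned to 0.53 and RPL41B minus 0 h to 0.42, and with arrays 4 to 6 alone RPL41B turned to -0.48. In settings chosen after seeing the data, turning the sign of array 2 gave 5 members among compounds in 2-copy cells (compound 6) and 0 for compound 5 in vector cells.

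Leaving out 1 replicate number gave 1 to 89 members for 2-copy over vector at 0 h and 0 to 2 at 2 h, 0 to 2 and 0 to 1 for 1-copy over 2-copy at 0 h and 2 h, where at 2 h without array 1 the 1 member called was a lower one. It gave 28 to 56, 32 to 51, 0 to 0 and 0 to 8 for compounds 1, 2, 4 and 5 in 2-copy cells, and 0 to 9, 0 to 1 and 0 to 1 for compounds 1, 2 and 5 in vector cells. It gave 1 to 2, 1 to 10 and 2 to 56 for 2-copy over vector with compounds 1, 2 and 5. Strain differences gave 9 to 14, 2 to 4 and 0 to 0 for compounds 1, 2 and 4, compound 1 minus 2 gave 0 to 1 in each strain, and differences among compounds in 2-copy cells 0 to 3.

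With a block for replicate number, 131 members changed from 0 h to 4 h, 117 from 4 h to 6 h, and 17, 9, 1, 0 and 0 differed between strains with compounds 1, 2, 4, 5 and 6; pairs of compounds again gave 0, and the block changed no other call by over 1.5 times. For the strain difference of compound 3 and for 3 minus 4 in 2-copy cells the block could not be fitted. Same-numbered arrays correlated between -0.159 and 0.557 in the differences of times and strains. Whether they share more than a number there is not given by the sources.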
